A study of Rattus norvegicus with 10 samples.

Results

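Platelets carry cell-surface receptors for the small set of soluble agonists that start and amplify clotting responses. The 10 genes examined here encode the platelet receptors for ADP and ATP (P2ry12, P2ry1, P2rx1), for thrombin (F2r, F2rl2, F2rl3), for thromboxane (Tbxa2r), for prostaglandin E2 and prostacyclin (Ptger3, Ptgir) and for adrenaline (Adra2a). A gene was included where a transcript cluster, the array's unit of measurement, carried its symbol and no other in the platform annotation. By that rule 9 of the 10 genes were measured, out of 22098 genes with such a cluster, and each of the 9 had a single cluster. The only cluster of Tbxa2r also carried the symbol Cactin, so no value is given for the thromboxane receptor.

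RNA was measured in exosomes, small vesicles released by cells, that had been isolated from plasma of male Wistar rats by differential centrifugation. Of the 10 animals, 5 were healthy controls and 5 had undergone remote ischemic conditioning (RIC), in which blood flow to a distant body part is stopped and restored, here 4 times, each with 5 min of ischemia followed by 5 min of reperfusion. The labels repeat the RIC description for every animal, and it is taken to apply to the RIC group alone. All animals gave 10 mL of venous blood into EDTA tubes. No source used here gives the body part, the ages or the time between RIC and sampling. Values are log2 array signals from a whole-transcriptome array, 1 array per animal, and the number of arrays limits the precision.

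ADP released by platelet granules acts through a pair of G protein-coupled receptors. P2ry1 couples to Gq and starts calcium release and shape change, and P2ry12 couples to Gi, sustains aggregation and is the target of clopidogrel. P2rx1 is an ion channel opened by ATP. Thrombin cleaves its receptors and exposes a tethered ligand; in mouse, platelets respond to thrombin through the products of F2rl3 and F2rl2, and not through that of F2r, which human platelets use. Prostacyclin restrains platelets through Ptgir, Gs and cyclic AMP, whereas Ptger3 and Adra2a lower cyclic AMP through Gi.

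The promoters of 4 members are shown because the results turn on them. P2ry1 had the greatest difference between groups and P2rx1 varied most between animals. F2rl2 and F2r are thrombin receptor genes close together on chromosome 2. In order of start coordinate, Iqgap2 is the only protein-coding gene that comes between them. F2rl2 lay at the top of the array's scale and F2r near its background. Each sequence runs from 250 bases before to 50 bases after the annotated start, 5′ to 3′ on the gene's strand, from RefSeq on build GRCr8. Capitals mark words bound by GATA factors (AGATAA, the word AGATAG, the word TGATAA and the word TGATAG) or ETS factors (AGGAAG and the word CGGAAG), families known for driving megakaryocyte genes, on either strand.
P2ry1, chr2:147391411-147391710, plus strand: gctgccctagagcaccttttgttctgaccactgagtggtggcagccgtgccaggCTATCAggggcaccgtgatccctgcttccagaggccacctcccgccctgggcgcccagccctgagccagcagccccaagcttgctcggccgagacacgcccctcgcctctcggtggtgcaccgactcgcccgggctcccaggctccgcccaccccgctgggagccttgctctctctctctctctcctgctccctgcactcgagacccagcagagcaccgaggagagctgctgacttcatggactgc
P2rx1, chr10:58116857-58117156, plus strand: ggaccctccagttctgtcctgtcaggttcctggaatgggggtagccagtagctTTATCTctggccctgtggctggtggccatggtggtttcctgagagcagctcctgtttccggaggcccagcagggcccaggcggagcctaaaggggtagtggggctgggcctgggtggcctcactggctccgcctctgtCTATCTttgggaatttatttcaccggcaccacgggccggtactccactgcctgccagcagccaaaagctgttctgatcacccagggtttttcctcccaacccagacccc
F2rl2, chr2:28706516-28706815, plus strand: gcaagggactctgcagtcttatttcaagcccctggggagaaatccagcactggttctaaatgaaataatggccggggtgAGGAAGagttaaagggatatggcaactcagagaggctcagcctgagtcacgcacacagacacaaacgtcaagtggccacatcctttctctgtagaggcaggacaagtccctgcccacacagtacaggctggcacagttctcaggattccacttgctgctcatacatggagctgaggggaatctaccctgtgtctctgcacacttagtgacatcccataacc
F2r, chr2:28620530-28620829, minus strand: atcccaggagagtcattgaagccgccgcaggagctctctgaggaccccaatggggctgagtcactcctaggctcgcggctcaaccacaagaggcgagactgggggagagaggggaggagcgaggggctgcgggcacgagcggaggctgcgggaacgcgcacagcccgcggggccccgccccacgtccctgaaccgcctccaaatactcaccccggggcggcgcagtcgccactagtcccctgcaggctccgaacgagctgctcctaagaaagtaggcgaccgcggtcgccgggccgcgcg
The P2ry1 window held 1 GATA word and no ETS word, that of P2rx1 held 2 GATA words, that of F2rl2 held 1 ETS word, and that of F2r held neither. Of the 10 receptor genes, 9 had a promoter in the table, P2ry12 being the one without. A GATA word occurred in 3 of the 9 (P2ry1, P2rx1 and F2rl3) and an ETS word in 4 (F2rl2, F2rl3, Ptgir and Adra2a). Over all 33469 promoters of that length, 30.3% held a GATA word and 45.5% an ETS word. A match is a description of these letters and not a binding site.

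Background was gauged from 1446 clusters of olfactory and vomeronasal receptor genes, whose mean values centred on 4.01 (median) and reached 4.38 at the 95th percentile. Of the 9 receptor genes measured, 7 had a mean above that percentile, and 5 (P2ry12, P2ry1, P2rx1, F2rl2 and F2rl3) lay above it in every animal. The preparations were checked against platelet markers. Of 17 such genes measured, 16 lay above the percentile and 6, among them Pf4, the alpha-granule chemokine, and Tubb1, the platelet beta-tubulin, sat at the table's highest value of 19.93 on all arrays. The mean of the 11 platelet markers that varied ranged from 14.90 to 15.43 in controls and from 14.45 to 15.29 in RIC (difference -0.21, two-sided exact permutation p = 0.27). That mean is a compressed measure, since Itgb3, Treml1, Gp9 and Thbs1 repeated their own highest value on 8 or 9 of the 10 arrays and Nbeal2 lay within the background. Singled out after their values were seen, Gp5 differed by -0.68 and Ppbp by -0.65, each with an unadjusted p above 0.05. In vesicles pooled from plasma, fewer platelet-derived vesicles and less of a given RNA in each cannot be told apart.

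**Figure D1:**
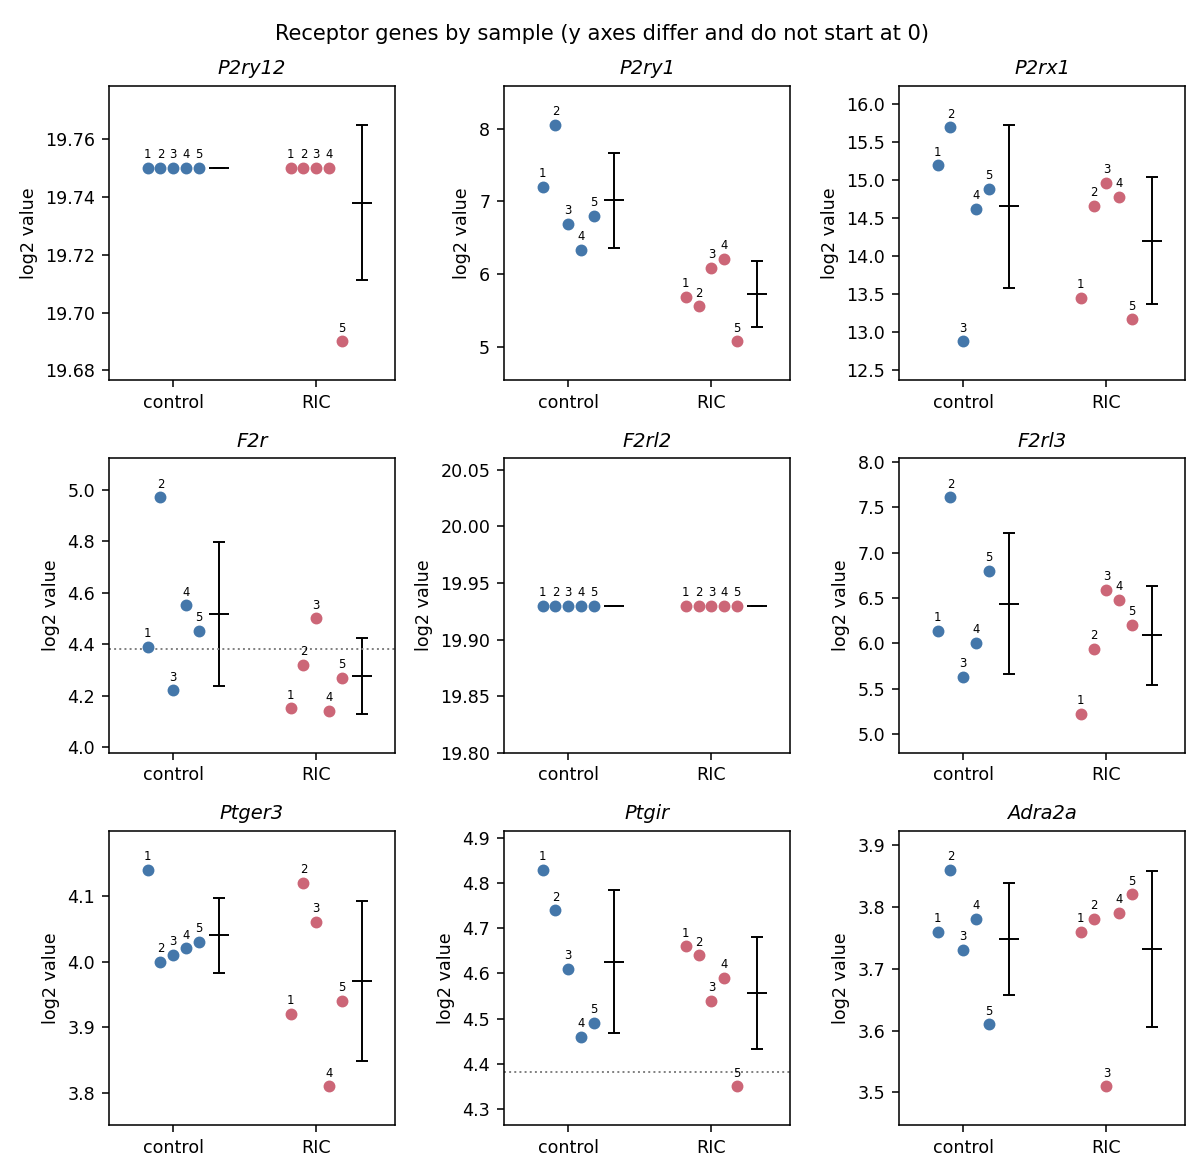
Log2 value of each measured receptor gene in each animal, with controls in blue and RIC in red, sample numbers beside the points, and mean and SD (n = 5) beside each group. The dotted line marks the background percentile of 4.38 where it falls within the axis. P2ry1 is the only panel in which the groups do not overlap, and F2rl2 is flat at 19.93.

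Among the ADP receptors, P2ry1 was lower in RIC, and all 5 RIC animals lay below all 5 controls. P2ry1 measured 7.20, 8.05, 6.69, 6.34 and 6.80 in control samples 1 to 5. In RIC samples 1 to 5 it measured 5.69, 5.56, 6.09, 6.21 and 5.08. The groups stood 0.13 apart, between control sample 4 and RIC sample 4, and control sample 2 and RIC sample 5 were the extremes. The means were 7.02 ± 0.65 in control and 5.73 ± 0.45 in RIC (SD, n = 5 each), a log2 difference of -1.29 (SE 0.33, 95% interval -2.04 to -0.54), or 2.45-fold lower on the array's scale with an interval of 1.45 to 4.12. The difference exceeded the SD of either group but not the range of the controls, which ran from 6.34 to 8.05. The two-sided exact permutation p for P2ry1 was 0.00794, the smallest that 5 against 5 allows, and the unadjusted limma p was 0.00366. It did not pass the test across the whole array, with a Benjamini-Hochberg adjusted p of 0.356 in limma.

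These figures stand against a background in which many RNAs differed at that unadjusted level. In limma, 0 of 68842 clusters had an adjusted p under 0.05, while 11.1% had an unadjusted p under 0.05, 3.17% in the direction of lower in RIC. Of the receptor genes, 1 of the 8 that varied, P2ry1, met the unadjusted level, a share near that background. Groups that did not overlap were found for 1 of the 8, against 1.74% of all clusters and 0.471% for RIC lower. Among 9769 clusters with a single symbol, a mean above background and some variation, 28 had a more negative difference than P2ry1 and 77 had a lower p. Clusters of P2ry1's level leaned the same way: among the 3116 averaging between 6 and 8, RIC was the lower group in 77.5%, the median difference was -0.20, and in 1.93% the RIC animals all lay below the controls.

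**Figure D2:**
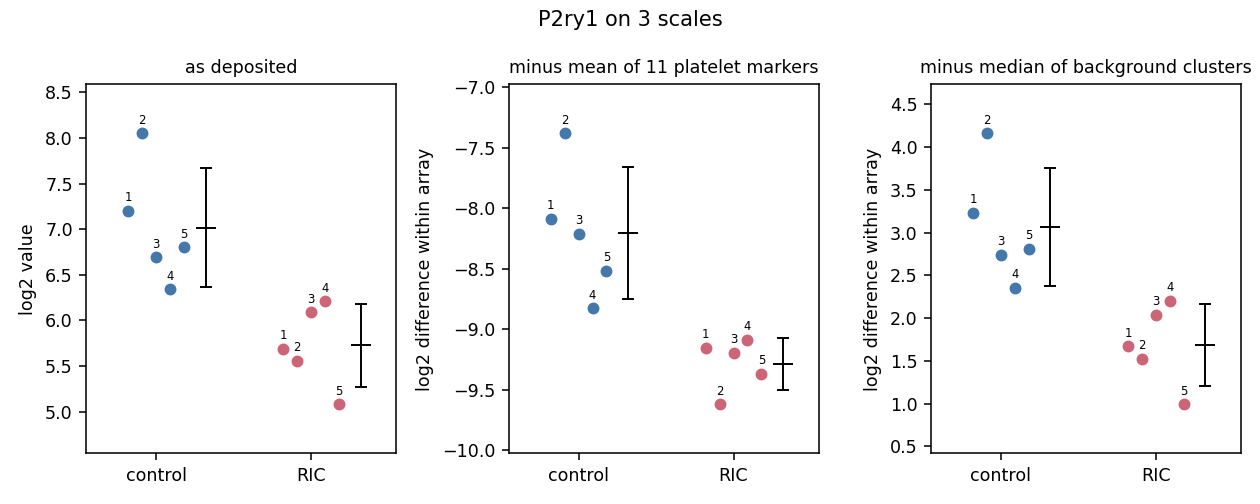
P2ry1 in each animal (blue control, red RIC, numbers give the sample; mean and SD, n = 5) as deposited, relative to the mean of the 11 platelet markers that vary, and relative to the median of the background clusters on the same array. In all 3 panels every RIC animal lies below every control. In the panel relative to the background this had to follow, as that median was higher in every RIC animal. Several of the platelet markers repeat 1 value on most arrays, so their mean moves with the other markers.

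P2ry1 was also set against other quantities of the same array. Relative to the platelet marker mean, P2ry1 measured -8.20 ± 0.54 in control and -9.28 ± 0.22 in RIC (n = 5 each), a difference of -1.08. Several of those markers repeat 1 value on most arrays, while Ppbp ranged from 15.81 to 19.82 and Gp5 from 16.05 to 19.23. That mean ran from 14.45 to 15.43 over the arrays and moved with the markers not held at 1 value. The P2ry1 value relative to it does not show how P2ry1 compares with platelet RNA as a whole. The background itself was not level: the median of the olfactory and vomeronasal clusters was 3.89 to 3.99 in controls and 4.01 to 4.09 in RIC, lowest in control sample 2 and highest in RIC sample 5, the samples in which P2ry1 was highest and lowest. Measured from that median, P2ry1 differed by -1.38 (exact permutation p = 0.00794). Every RIC animal had a lower P2ry1 and a higher background median than every control, so subtracting that median had to keep the groups apart. This p is therefore no second test of P2ry1. With each array's level-dependent trend removed, the P2ry1 difference was -1.17. Control sample 2 was the extreme of the first principal component of the arrays and control sample 1 that of the second. Their root mean square distance from the mean of their own group was 0.29 each. That was close to the 0.30 of RIC sample 4, so these controls were not alone in lying far out. Without control samples 1 and 2 the P2ry1 difference was -0.88, with an exact permutation p of 0.0357 over 56 assignments.

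**Figure D3:**
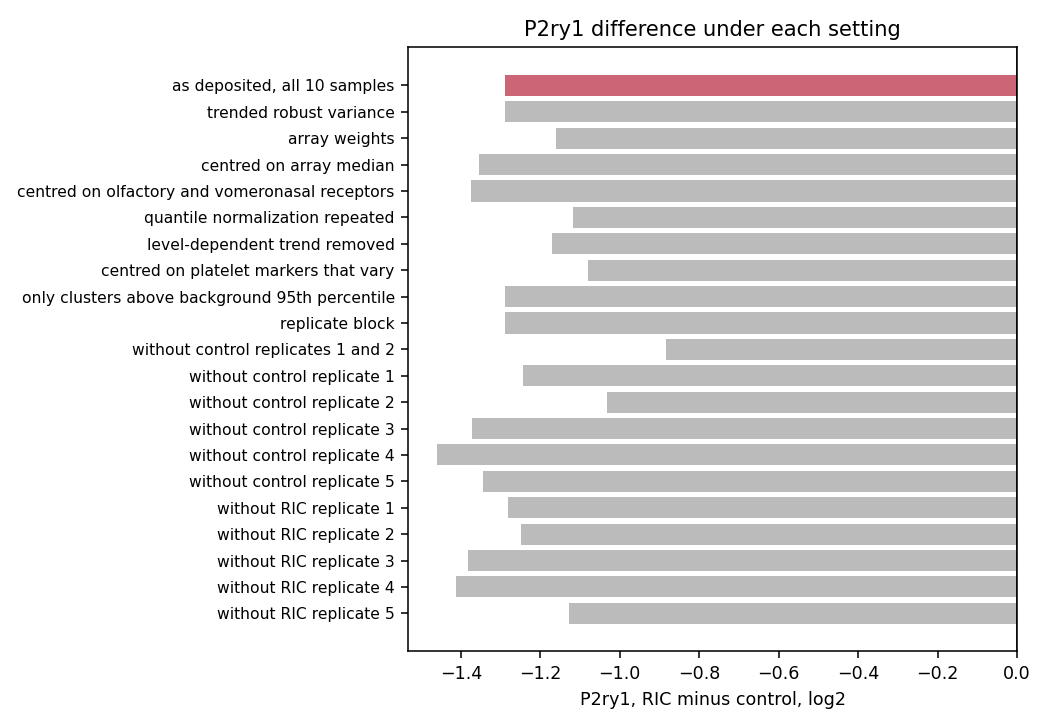
P2ry1 difference between RIC and control (log2, bars from 0) as deposited and under 20 other settings of scaling, variance model, filter and samples. All bars are negative, from -1.46 without control sample 4 to -0.88 without control samples 1 and 2.

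Endothelial cells also express P2ry1. The 12 endothelial markers averaged 5.77 to 6.62 in controls and 5.53 to 6.23 in RIC, and 0 were at an unadjusted p under 0.05. Of these, 10 of 12 had the lower mean in RIC (median difference -0.27), beside 67.9% of the single-symbol clusters above background that varied. Red cell markers that varied averaged 7.21 to 7.79 in controls and 7.40 to 9.48 in RIC. Of these, 6 of 6 were higher and 2 had an unadjusted p under 0.05, beside 7.97% of all clusters higher at that level. Among the 22543 clusters above background, fitted alone, 865 were higher at that level. Monocyte and neutrophil markers averaged 5.60 to 6.03 against 5.51 to 6.12, and lymphocyte markers 5.07 to 5.23 against 5.03 to 5.31. Smooth muscle markers, relevant to receptors shared with the vessel wall, averaged 4.51 to 4.60 against 4.59 to 4.65. Each of these last 3 lists held 1 gene at an unadjusted p under 0.05, all higher in RIC, namely Mpo by 0.47, Pax5 by 0.32 and Tagln by 0.19. Ccr2, a monocyte receptor singled out after its values were seen, had a difference of -1.40, more negative than that of P2ry1, with a limma adjusted p of 0.468. Summed on the linear scale and expressed as log2, the endothelial markers reached 10.17 to 11.71 in controls and 9.69 to 11.15 in RIC, and the platelet markers 23.09 to 23.30 and 23.00 to 23.25. The part of these cell types in the P2ry1 difference was not tested.

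P2ry12 gave almost no information on the groups, because its value barely moved. It measured 19.75 in all 5 controls and in RIC samples 1 to 4, and 19.69 in RIC sample 5. The same value on 9 of 10 arrays is a plateau, and it lies below the table's highest value. Such repeats also occurred lower on the scale, at 18.06 for Rap1b and 5.28 for Gnas on all 10 arrays, and their cause was not tested. The difference was -0.01 (95% interval -0.06 to 0.04, limma adjusted p = 0.862). That interval and p rest largely on the variance limma borrows from other clusters. The limma SE was 0.022 for P2ry12, and it was 0.019 even for F2rl2, which was constant on all arrays. P2ry13, a further ADP receptor whose gene lies next to P2ry12 on chromosome 2, measured, at the brighter of its 2 clusters, 4.62 ± 0.50 in control and 4.88 ± 0.42 in RIC (n = 5 each, limma adjusted p = 0.719).

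P2rx1 varied most of the receptor genes, with an SD of 0.94 over the 10 arrays, and its groups overlapped widely. It measured 15.20, 15.70, 12.88, 14.63 and 14.89 in control samples 1 to 5. In RIC samples 1 to 5 it measured 13.45, 14.67, 14.97, 14.78 and 13.17. The 3 lowest values, in control sample 3 and RIC samples 5 and 1, belonged to the 3 arrays with the lowest platelet marker means (14.90, 14.45 and 14.85). P2ry1 was also lowest in RIC sample 5, while control sample 3, like every control, stood above every RIC animal. Whether P2ry1 followed the platelet marker mean within groups was not tested. The P2rx1 difference was -0.45 (SE 0.57, 95% interval -1.73 to 0.83, limma adjusted p = 0.776), and without control samples 1 and 2 it turned to 0.07. Leaving out single animals gave -0.90 without control sample 3 and -0.19 without control sample 2.

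The genes most like P2rx1 over the 10 arrays, among 9756 clusters with a single symbol, above background and below the top of the scale, were Tspan12 (Pearson r = 0.96), Rnasek (0.94) and Syt5 (0.94). For P2ry1, added after its values were seen, they were Wdr44 (r = 0.98), Stk26 (0.97) and Hltf (0.97). These correlations pick the highest of many over only 10 arrays that share their group structure, and they describe these arrays alone.

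The thrombin receptor genes fell at separate places on the scale. F2rl2 sat at 19.93 on all 10 arrays, as did 1211 clusters in all, so no difference could be measured. F2rl3 measured 6.14, 7.61, 5.63, 6.0 and 6.80 in control samples 1 to 5. In RIC samples 1 to 5 it measured 5.22, 5.94, 6.59, 6.48 and 6.20. Control sample 2 was again the highest, RIC sample 1 the lowest, and the remaining animals intermingled. The F2rl3 means were 6.44 ± 0.78 in control and 6.09 ± 0.55 in RIC (n = 5 each), a difference of -0.35 (95% interval -1.25 to 0.55, limma adjusted p = 0.749). Without control sample 2 the F2rl3 difference was -0.06.

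F2r stayed close to background. It measured 4.39, 4.97, 4.22, 4.55 and 4.45 in control samples 1 to 5. In RIC samples 1 to 5 it measured 4.15, 4.32, 4.50, 4.14 and 4.27. Only 5 of the 10 values exceeded the background percentile, 4 of them in controls. The F2r difference was -0.24 (95% interval -0.54 to 0.06, limma adjusted p = 0.517), and without control sample 2 it was -0.13. F2rl1, the trypsin-activated relative of F2r, measured 3.81 ± 0.08 in control and 3.89 ± 0.09 in RIC (n = 5 each), within the background.

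The prostanoid and adrenaline receptors lay at or just above background in both groups. Ptgir, the prostacyclin receptor, ranged from 4.46 to 4.83 with a median of 4.61 in controls and from 4.35 to 4.66 with a median of 4.59 in RIC. Its difference was -0.07 (95% interval -0.27 to 0.13). Ptger3 ranged from 4.0 to 4.14 in controls and from 3.81 to 4.12 in RIC, and 0 of 10 values exceeded the background percentile. Adra2a ranged from 3.61 to 3.86 and from 3.51 to 3.82, likewise with 0 of 10. Differences of -0.07 for Ptger3 and -0.02 for Adra2a were within the spread between animals, with limma adjusted p of 0.663 and 0.958. Signal at this level does not show that a transcript was absent.

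**Figure D4:**
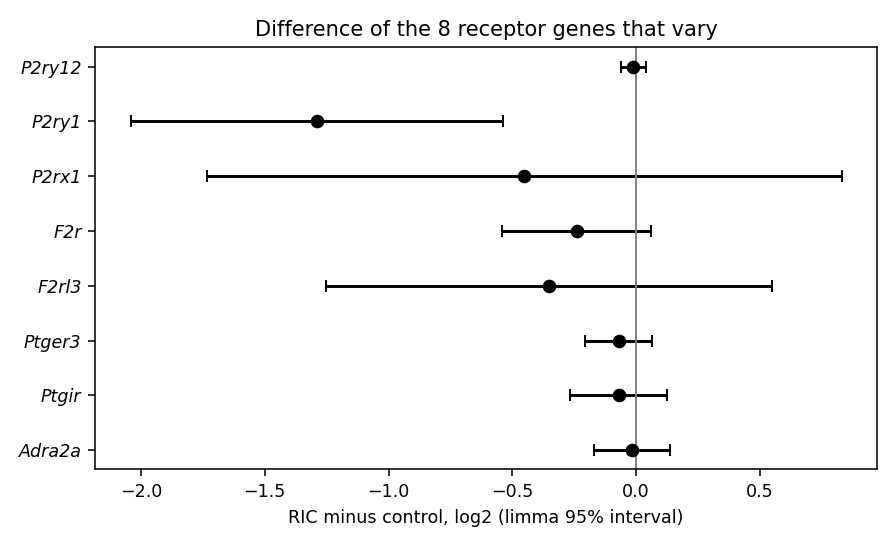
Difference between RIC and control (points, log2) with limma's 95% interval (bars) for the 8 receptor genes that varied. The P2ry1 interval, from -2.04 to -0.54, is the only one that does not include 0.

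Taking the receptor genes as a set, all 8 that varied had lower means in RIC, with a median difference of -0.16, against 37.4% of all clusters and a median of 0.03. Among the 9769 clusters above background with a single symbol, 67.9% were lower and the median was -0.06. Of the 8 receptor genes, 6 had a mean above background, and their median was -0.295. P2ry12, 1 of those 6, counted as lower through RIC sample 5 alone. The set's direction depended on the scaling: relative to the platelet marker mean, which itself differed by -0.21, the set's median was 0.06. It also leaned on single animals, with a median of -0.07 without control sample 2 and -0.03 without control samples 1 and 2. Of the 7 receptor genes with a single highest array, control sample 2 was that array for 5, and none had its highest value in a RIC animal.

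The signalling genes around the receptors were followed in 6 lists with 106 genes, of which 98 were measured and varied. With limma, 0 of the 98 passed over all clusters. At an unadjusted p under 0.05, 6 were lower in RIC and 4 higher, that is 6.12% and 4.08%. Over all clusters the shares were 3.17% and 7.97%, but only 22543 of the 68842 clusters lay above background. Fitted alone, 1527 of those 22543 were lower at that level and 865 higher. Of the 76 varying signalling genes among them, 5 were lower and 3 higher. The split of the 98 by direction turned with the scaling. It was 12 lower and 0 higher centred on the array median, and 16 and 0 centred on the background clusters. After repeated quantile normalization it was 1 and 8, and with each array's trend removed 3 and 6. The median difference was -0.05. Without control sample 2 the count at the unadjusted level dropped from 10 to 5, without control sample 3 or 4 it was 6, and without RIC sample 1 or 5 it was 4.

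The list of the Gq and G13 pathways, through which P2ry1 and the thrombin receptors act, had 18 of 23 varying genes lower and a median of -0.13. At an unadjusted p under 0.05 were 2 lower and 1 higher. The array leaned the same way. RIC was lower in 67.9% of the 9769 single-symbol clusters above background (median -0.06) and in 77.5% of those averaging 6 to 8 (median -0.20). These shares also stand beside the counts of the Gi, Gs, regulation and ligand lists below. Rock1, a kinase that drives platelet contraction, measured 8.75, 9.54, 9.37, 8.89 and 8.51 in control samples 1 to 5. In RIC samples 1 to 5 Rock1 measured 8.07, 8.47, 8.33, 8.24 and 7.68. As with P2ry1, the Rock1 groups did not overlap, and RIC sample 5 was the lowest. The Rock1 difference was -0.85 (SE 0.22, limma adjusted p = 0.356). Rock2, its paralogue, differed by -1.03 (limma adjusted p = 0.412) with overlapping groups. Arhgef1, an exchange factor that acts downstream of G13, lay the other way at 5.21 ± 0.12 in RIC and 4.98 ± 0.15 in control (n = 5 each, limma adjusted p = 0.409). Its difference of 0.23 became 0.14 when centred on the background clusters, where that of Rock1 was -0.94.

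In the list of Gi and phosphoinositide 3-kinase genes, the P2ry12 pathway, 13 of 20 were lower and the median was -0.09. Gnai1, a Gi alpha subunit, measured 5.12 ± 0.08 in RIC and 5.31 ± 0.15 in control (n = 5 each, limma adjusted p = 0.42), the 1 gene of the list at an unadjusted p under 0.05. Gng11, a G protein gamma subunit of platelets, differed by -0.26 (limma adjusted p = 0.475). In the Gs and cyclic AMP list 9 of 15 were lower, with a median of -0.02. Prkacb, a catalytic subunit of protein kinase A, differed by -0.33 (limma adjusted p = 0.437), and Prkar2b, a regulatory subunit of the same kinase, by -0.56 (limma adjusted p = 0.469).

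Genes that regulate the receptors were lower in 11 of 14 cases, with a median of -0.10. Grk3, a kinase that desensitises G protein-coupled receptors, was higher in RIC by 0.17 (limma adjusted p = 0.383). It lay near background, with 7 of 10 values above the background percentile. Arrb1, the arrestin that binds phosphorylated receptors, had a difference of -0.48, at 7.19 ± 0.23 in RIC and 7.67 ± 0.45 in control (n = 5 each, limma adjusted p = 0.448). Centred on the background clusters, the differences were 0.085 for Grk3 and -0.57 for Arrb1. Genes that supply or remove the ligands were lower in 8 of 11, with a median of -0.09. Pla2g4a, the phospholipase that releases arachidonate, differed by -0.20 (limma adjusted p = 0.43) and Abcc4, a transporter of platelet granules, by -0.40 (limma adjusted p = 0.584). Without control sample 2 the differences were -0.16 for Abcc4, -0.29 for Arrb1 and -0.13 for Pla2g4a.

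Relatives of the receptors showed the opposite lean and lay close to background. Of 15 measured, 13 were higher in RIC with a median of 0.08, beside a shift of 0.09 (exact permutation p = 0.00794) in the per-array median of the background clusters. P2ry4, a nucleotide receptor, differed by 0.16 (limma adjusted p = 0.412) and Ptger4, a prostaglandin E2 receptor that raises cyclic AMP, by 0.13 (limma adjusted p = 0.437). Measured from the background median the differences were 0.08 for P2ry4 and 0.04 for Ptger4.

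**Figure D5:**
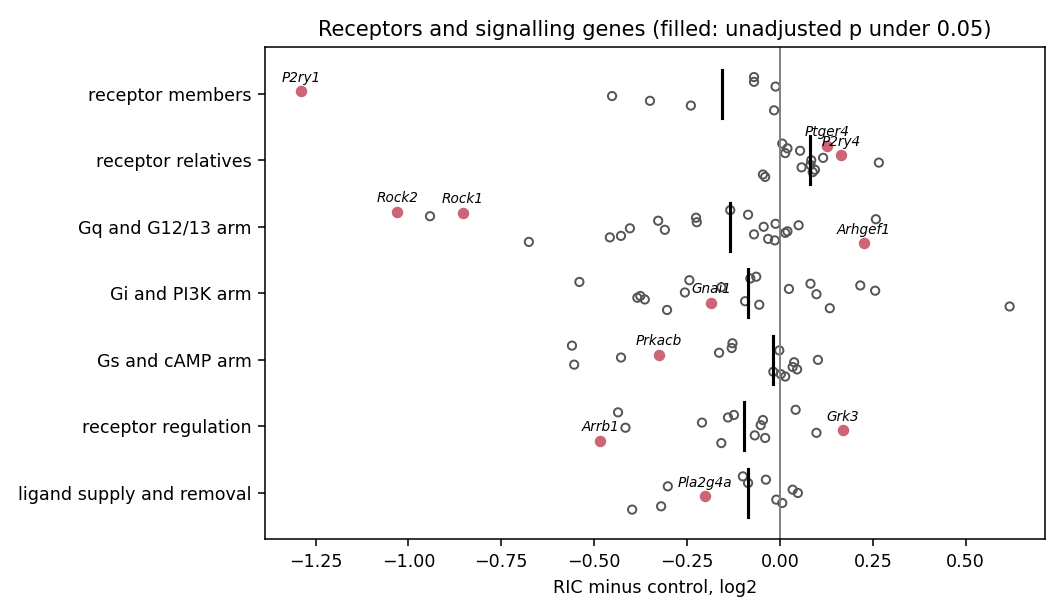
Difference between RIC and control (log2) of each receptor gene and signalling gene that varied, by list. Open circles are genes with an unadjusted limma p of 0.05 or more, filled circles those under 0.05, and black bars list medians; P2ry1 at -1.29 lies farthest to the left, followed by Rock2 and the unfilled Prkcq.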

How the data were processed

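The log2 values, as the authors deposited them, cover 68842 transcript clusters on 10 arrays. The submitters' processing notes name Affymetrix Expression Console; no source used here gives its version, the summarisation, the normalization or the genome build. Values ran from 2.71 to 19.93, the table's highest value: 1211 clusters sat at 19.93 on all arrays, and 1437 were constant on all arrays, some of them lower on the scale. No difference can be measured for a constant cluster.

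Symbols came from the platform annotation (23456 clusters with 1 symbol, 495 with several, 44891 with none). All 9 members matched RefSeq by gene number, with unchanged symbols. Groups came from the titles. RIC was compared with control, 5 against 5, with limma 3.58.1 (lmFit and eBayes, R 4.3.3) on the whole table as deposited, without covariate or filter, with Benjamini-Hochberg adjustment and a threshold of 0.05. The limma code was tested on simulated data before use. Single values were compared by two-sided exact permutation over 252 assignments. Each array is a separate rat, and p-values reflect spread between rats. Exceptions are those of limma relative to the platelet markers and those of limma for clusters that hardly vary, such as P2ry12.

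Members and lists were chosen with earlier results of these data known. Named were all members and, per signalling list, the 2 genes with the lowest p (Rock2, Prkcq, P2ry13, F2rl1, Rap1b, Gnas and the single marker genes were added after seeing values). Of 106 signalling genes, 3 had no cluster of their own and were left out; where a gene had several, the one with the highest mean was used. Alternatives covered scaling, variance model, dim clusters, the replicate block and samples left out. Each member has 1 cluster, so averaging its clusters changes nothing.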

Additional observations from a re-analysis of the deposited data

Results flagged for a closer look

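The 8 receptor genes that varied and 12 named signalling genes gave 40 groups of 5 values, 1 per gene and condition. In 6 of the 40, a sample's gap to its neighbour exceeded Dixon's 95% critical value for 5 samples, 0.71 of the group's range. Chance gives about 1 in 20 for separate groups of untied values. These groups share 10 arrays, and P2ry12 had equal values in all 5 controls, so 6 of 40 cannot be set against that rate. For P2ry12, RIC sample 5 stood apart at 19.69 while the other RIC animals shared 19.75, so its gap was the whole range. For Ptger3, control sample 1 was apart at 4.14, and for Adra2a, RIC sample 3 at 3.51, both within the background. Control sample 2 was apart for Gng11 at 6.16 and for Arrb1 at 8.46, above the other controls. RIC sample 5 was apart for Prkacb at 5.74, below the other RIC animals.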

How the results depend on the processing

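The P2ry1 difference was negative in all 21 settings run, from -1.46 to -0.88, with an unadjusted limma p of 0.0166 or less; leaving out single animals gave -1.46 to -1.03. Its limma adjusted p ranged from 0.297 to 0.706 except relative to the platelet markers, where it was 0.00196. There 562 clusters passed, against 0 in every other setting. As deposited, Ptger3 and Ptgir both differed by -0.07, with unadjusted limma p of 0.269 and 0.439. Centred on the platelet markers, both differed by 0.14 and shared an unadjusted limma p of 0.562. Equal differences gave equal p there, so these limma p-values did not rest on each gene's own spread between animals. Neither the 0.00196 nor the 562 is support for a P2ry1 difference. That centring shifted the median of all clusters to 0.24, against 0.03 as deposited, and turned the members' median to 0.0554, P2ry12 to 0.198, Ptger3 and Ptgir to 0.14, Adra2a to 0.19, Gnai1 to 0.0244 and Pla2g4a to 0.00836. Repeated quantile normalization turned P2ry12 to 0.0783. Without control samples 1 and 2, P2rx1 turned to 0.0747, Ptgir to 0.036 and Adra2a to 0.0253; leaving out single animals gave -0.0505 to 0.0395 for Adra2a. The members at an unadjusted p under 0.05 numbered 3 (with F2r and Ptger3) when centred on the background clusters, and 1 to 2 with single animals left out, F2r joining without control sample 3. Signalling genes at that level numbered 10 as deposited, 6 with a trended robust variance, 16 centred on the background clusters, 5 relative to the platelet markers, 6 without control samples 1 and 2, and 4 to 11 with single animals left out. Over all clusters, those higher in RIC at that level numbered 5485 as deposited, 1800 centred on the array median and 3327 after repeated quantile normalization, and those lower 2180, 4921 and 3451.

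The groups share replicate numbers but the labels do not tie the animals. Deviations of same-numbered animals correlated at -0.07 to 0.23, and 1 of 5 controls correlated best with its own number. With the replicate number as a block, 0 clusters passed, 13 signalling genes had an unadjusted p under 0.05, and P2ry1 had an unadjusted p of 0.0166 and an adjusted p of 0.417.

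The top of the scale hides any difference in F2rl2, P2ry12 repeats 1 value on 9 of 10 arrays, and F2r, Ptger3, Ptgir and Adra2a lie too near background for small differences to be seen.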
